A study of Mus musculus with 4 samples.

Results

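Unannotated transcripts of cytosolic and mitochondrial ribosomal protein genes were examined in granulocyte-monocyte progenitors of wild-type and MST1-deficient mice. The members were all listed genes whose mouse symbol starts with Rps, Rpl, Mrps or Mrpl followed by a number, without the ribosomal S6 kinases and without pseudogenes named -ps. They numbered 35 of 5059 genes with a gene number, 20 cytosolic (6 of the small and 14 of the large subunit) and 15 mitochondrial (5 and 10). The rule reads names alone: it also took in Rps19bp1, which encodes a binding partner of Rps19 and not a ribosomal subunit, and the paralogues Rpl22l1 and Rpl7l1.

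Ribosomes are built from ribosomal RNA and proteins in 2 subunits, the small one decoding the messenger RNA and the large one joining amino acids. Cytosolic ribosomes translate nuclear messages, while mitochondrial ribosomes, whose proteins are also encoded in the nucleus, translate the few messages of the mitochondrial genome. Messages of cytosolic ribosomal proteins typically begin with a run of pyrimidines, the terminal oligopyrimidine (TOP) tract, through which their translation responds to growth signals. Blood progenitors are known to be sensitive to a shortage of cytosolic ribosomal proteins, with inherited anaemias caused by mutations of RPS19, RPS26 and other members.

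The progenitors, precursors of neutrophils and monocytes, were sorted from wild-type mice (2 libraries) and from mice labelled MST1-deficient (2 libraries), each library from a pool of 10 mice. Both groups were kept in medium with serum and received no drug, per the labels. MST1 is the usual name of the Hippo pathway kinase encoded by Stk4; how the gene was inactivated, and the strain, age and sex of the mice, are not given in the sources used here. Poly(A)-selected RNA was sequenced, and the files analysed here list transcripts outside the reference annotation, called unannotated below, with their estimated counts and FPKM, which corrects a count for the length of the transcript and the size of the library. Values for the known transcripts of these genes were not used here: a level is that of the unannotated forms alone and not that of the gene.

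The libraries listed between 6517 and 6774 transcripts with 928977 to 1079382 estimated counts. Stk4 was listed at 0 in all 4 libraries, so these values do not check the genotype. Of 17 marker genes of the labelled cell type, 5 were listed (Kit, Gfi1, Csf3r, Cd177 and Fcgr2b). They summed to 168.4 and 117.6 FPKM in wild-type replicates 1 and 2, against 156.8 and 167.8 in MST1-deficient ones. Of these 3 of 4 tested had positive differences (median log2 fold change 0.34), and the groups overlapped for all 4. The markers Mpo, Elane, Prtn3 and Ctsg were at 0. Such a 0 says only that no unannotated transcript was listed. For all 4 tested markers of eosinophils, basophils and mast cells the groups did not overlap, with lower values in MST1-deficient pools. Over all tested genes 18.8% were lower without overlap, and none of these markers passed (edgeR adjusted p at least 0.918). The summed FPKM of the 5 listed ones was 152 and 191 in wild type, 114 and 127 in MST1-deficient replicates 1 and 2. Of the defining markers of these cells, Prg2, Epx, Cpa3, Mcpt8 and Fcer1a were at 0. Erythroid and megakaryocyte markers (7 of 14 listed, Gata1 and Klf1 at 0) summed to 58.5 and 73.6 FPKM in the wild-type pools, against 60.8 and 41.7 in MST1-deficient replicates 1 and 2. Of these 3 of 4 tested had negative differences (median log2 fold change -0.59), and Sptb, an erythroid membrane skeleton gene, had 13.8 and 15.8 FPKM against 7.89 and 2.91, without overlap (edgeR adjusted p = 0.733). B lineage markers (5 of 10 listed) summed to 22.4 and 1.97 FPKM in wild-type replicates 1 and 2, against 9.46 and 8.45 in MST1-deficient ones. T and NK markers (4 of 12) summed to 51.1 and 52.0 against 54.7 and 23.4. All 3 tested B lineage and all 3 tested T and NK markers had negative differences, with overlap. In wild-type replicate 2 the summed FPKM of 4 Y-linked genes was 0, against 3.6 in replicate 1 of that genotype. It was 23.4 and 14.8 in MST1-deficient replicates 1 and 2, so the pools differed in Y-linked signal. The part of these differences in the results below was not tested.

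The share of ribosomal protein genes with an unannotated transcript was near that of other genes. Listed were 23.5% of 85 cytosolic and 19.2% of 78 mitochondrial protein-coding genes of the RefSeq table, beside 22.6% of 21900 protein-coding genes. Members with at least 2 such transcripts numbered 5 of 20 and 4 of 15, beside 34.0% of all listed genes. As a description of their levels, 8 of 20 cytosolic and 8 of 15 mitochondrial members had a mean above 10 FPKM, beside 14.4% of all listed genes.

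The highest levels of all 5059 genes were those of 4 cytosolic small subunit proteins. Rps26 (gene 27370, chromosome 10, 128624529 to 128626506, GRCm38), whose protein lies near the exit channel of the messenger RNA, had 3353 and 3489 FPKM in wild-type replicates 1 and 2 and 3125 and 3681 FPKM in MST1-deficient replicates 1 and 2. The MST1-deficient libraries lay on either side of the wild-type ones. For Rps28 (gene 54127, chromosome 17, 33823036 to 33824562) the levels were 1487 and 1625 FPKM in wild type against 1310 and 2106 FPKM, again on either side. Rps19 (gene 20085, chromosome 7, 24884592 to 24889811), the gene first linked to Diamond-Blackfan anaemia, had 1287 and 1453 FPKM against 1294 and 1599 FPKM, and the groups overlapped. Rps18 (gene 20084, chromosome 17, 33951998 to 33955665), a protein of the small subunit head, had 2092 and 1622 FPKM in the wild-type pools against 1279 and 835 FPKM in MST1-deficient libraries, with no overlap. These 4 genes carried between 95.1% and 96.0% of the summed cytosolic FPKM and between 10.4% and 11.5% of the FPKM of all listed transcripts. Their share of all estimated counts, which are not corrected for length, was between 1.82% and 2.43%.

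**Figure D1:**
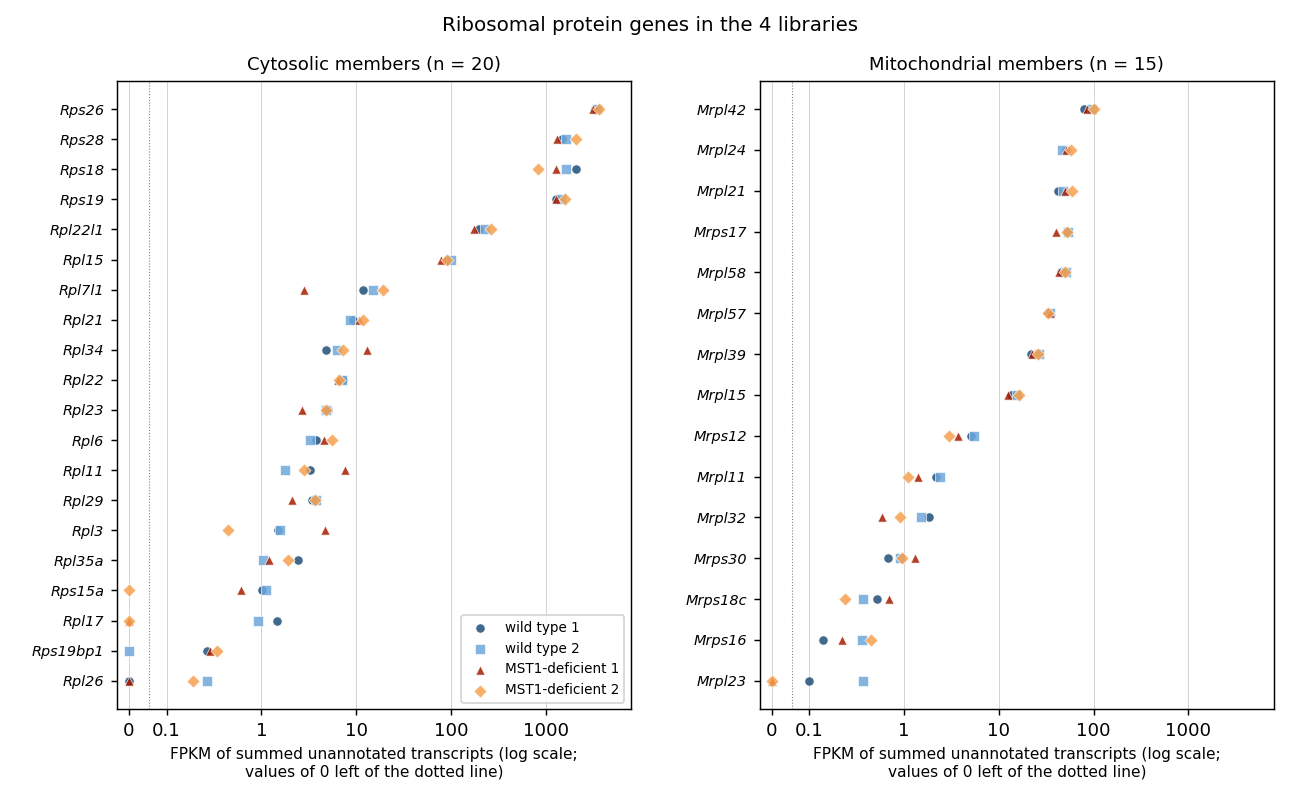
FPKM of the summed unannotated transcripts of each member (log axis, values of 0 left of the dotted line) in the 2 wild-type and 2 MST1-deficient libraries, cytosolic members on the left and mitochondrial on the right. Rps26, Rps28, Rps18 and Rps19 lie far above the other members, and no mitochondrial member exceeds 100.4 FPKM.

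The other cytosolic members were spread widely. Rpl22l1, a paralogue of the RNA-binding large subunit protein Rpl22, had 199 and 232 FPKM in the wild-type pools against 174 and 263 FPKM in MST1-deficient libraries. Rpl22 itself had 7.22 and 7.10 against 6.39 and 6.55 FPKM, with no overlap but a difference of less than 1 FPKM. Rpl15, a core protein of the large subunit, had 90.3 and 102 against 79.1 and 91.5 FPKM, with overlap. Apart from the 4 most abundant genes, Rpl22l1 and Rpl15, the 14 cytosolic members had means between 0.115 and 12.3 FPKM, with Rpl26 and Rps19bp1 lowest. The 14 cytosolic members of the large subunit had a median of 4.30 FPKM, far below the 4 most abundant genes, beside 1.89 FPKM over all listed genes.

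Mitochondrial members covered a narrower range. Their means ran from 0.118 FPKM (Mrpl23) to 90.6 FPKM (Mrpl42), with a median of 14.5 beside 1.89 over all listed genes. Mrpl42 had 79.3 and 97.2 FPKM in the wild-type pools against 85.4 and 100.4 FPKM in MST1-deficient libraries. Mrpl24 had 50.9 and 46.3 against 50.8 and 57.4 FPKM, and Mrps17, of the small subunit, 52.5 and 53.8 against 39.8 and 51.9 FPKM. Mrpl58, a peptidyl-tRNA hydrolase built into the mitochondrial large subunit that can release stalled chains, had 44.9 and 51.5 against 43.2 and 50.0 FPKM. Apart from Mrps17, at 49.5 FPKM on average, the mitochondrial small subunit members were low (at most 4.28 FPKM for Mrps12). Over the 4 libraries the median coefficient of variation was 14.4% for mitochondrial and 30.9% for cytosolic members, beside 44.7% for all listed genes, without matching for level.

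Summed over members, the levels of both sets overlapped between the groups. Cytosolic members summed to 8564 and 8578 FPKM in the wild-type pools against 7317 and 8640 FPKM in MST1-deficient replicates 1 and 2, that is 8571 ± 10.1 against 7979 ± 935 (SD, n = 2). Mitochondrial members summed to 348 and 385 against 346 and 401 FPKM, or 366.1 ± 26.02 against 373 ± 38.6. The ratio of the cytosolic to the mitochondrial sum was 24.6 and 22.3 in the wild-type pools against 21.1 and 21.6 in MST1-deficient libraries, without overlap. Without the 4 most abundant genes it was 0.990 and 1.01 against 0.894 and 1.05, with overlap. Without Rps18 alone the cytosolic sum was 6713 ± 342 in the wild-type pools against 6922 ± 1250 in MST1-deficient cells, so its lower mean in MST1-deficient libraries turned with that 1 gene. With 2 libraries a group, an exact permutation test cannot go below 0.333, and none was made on these sums.

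The annotated start sites were compared for the TOP tract, a feature that the symbols do not give. A start was counted where a C at the first transcribed base was followed by at least 4 bases that were each C or T, on the transcribed strand. RefSeq start windows (GRCm38.p6) were found for 30 of 35 members. The tract stood at an annotated start of 4 of 16 cytosolic members and 0 of 14 mitochondrial members, beside 2.67% of 17492 protein-coding genes. When it could begin within 5 bases of the start, the counts were 7 of 16 and 4 of 14, beside 21.5%. Over all protein-coding genes under the naming rule, listed or not, it stood at the start in 21.2% of 66 cytosolic and 0.0% of 69 mitochondrial genes. Within 5 bases these shares were 47.0% and 24.6%, so the members were near their families. Each sequence below runs from 10 bases before the annotated start to 20 bases from it, with the tract in capitals; the first 4 are the cytosolic members with a tract at the start, and the others are the remaining members among the 5 most abundant of each set, with or without a tract nearby.
Rps18 (chr17:33955646-33955675, minus strand): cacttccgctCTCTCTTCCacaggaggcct
Rpl15 (chr14:18270967-18270996, minus strand): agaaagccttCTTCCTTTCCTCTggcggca
Rpl35a (chr16:33056472-33056501, plus strand): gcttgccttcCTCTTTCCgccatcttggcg
Rps15a (chr7:118116128-118116157, minus strand): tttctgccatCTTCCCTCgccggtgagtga
Rps26 (chr10:128626487-128626516, minus strand): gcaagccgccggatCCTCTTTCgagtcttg
Rps28 (chr17:33824543-33824572, minus strand): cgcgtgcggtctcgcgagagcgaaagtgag
Rps19 (chr7:24884582-24884611, plus strand): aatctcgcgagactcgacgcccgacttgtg
Rpl22l1 (chr3:28805498-28805527, plus strand): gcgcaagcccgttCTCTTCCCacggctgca
Mrpl42 (chr10:95501930-95501959, minus strand): gcgcgctggacggcgCCTTTaggacccaga
Mrpl24 (chr3:87919534-87919563, plus strand): gtttcctgtccattttgtagcaacggacta
Mrpl21 (chr19:3283032-3283061, plus strand): ggttcgcgctgCTTCCgcttccggttggga
Mrps17 (chr5:129715487-129715516, plus strand): agcgcaccgtgagcgtcatcacgctgcgcc
Mrpl58 (chr11:115403742-115403771, plus strand): agtgagcaccggaagcggtcctgggaggtg

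In the comparison of the genotypes, 28 of 35 members had enough signal to be tested (1 FPKM or more in 2 or more of the 4 libraries): 17 cytosolic and 11 mitochondrial. None passed the adjusted threshold of 0.05 with edgeR (quasi-likelihood F-test, Benjamini-Hochberg over 3221 genes), where 0.0% of all genes passed. At an unadjusted p under 0.05 with edgeR there was 1 member, Rps18, beside 5.65% of all genes in either direction and 2.64% lower in MST1-deficient pools. DESeq2 called 1 member (Rps18), beside 1.43% of all genes, and limma on log2(FPKM + 0.5) called 0. Of cytosolic members 9 had a positive and 8 a negative difference, and of mitochondrial members 7 and 4. The median log2 fold change was 0.09 for cytosolic and 0.07 for mitochondrial members, beside 0.01 over all tested genes. It was -0.01 and -0.02 on the FPKM scale of limma, and 0.01 and -0.01 with edgeR on library totals, so neither set had a direction that held across scales.

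Rps18 had the smallest p of the members, 1.69-fold lower in MST1-deficient libraries (log2 fold change -0.76, SE 0.20, edgeR adjusted p = 0.665). Its mean was 1857 ± 332 FPKM in the wild-type pools against 1057 ± 314 FPKM in MST1-deficient libraries (SD, n = 2). DESeq2 gave an adjusted p of 0.0067 for the same counts. With each library left out in turn the log2 fold change stayed between -0.90 and -0.64, and the edgeR adjusted p was at least 0.427. In such bulk samples, fewer cells of a type and less RNA per cell cannot be told apart. The GENCODE annotation holds 3 pseudogenes named -ps after it, and how reads were shared between such copies is not given.

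Of 2 Rps18 transcripts of equal length, the groups were apart for 1. The transcript novel_T004064, of 539 bases, had 6219 and 4301 estimated counts in the wild-type pools against 3162 and 2247 in MST1-deficient replicates 1 and 2, with no overlap between the groups. The log2 fold change was -0.89 (SE 0.28, edgeR, adjusted p = 0.833 over 4661 transcripts). The other transcript of 539 bases, novel_T004063, had 446 and 535 against 368 and 678 counts, with overlap. The longer form of 1098 bases had 7.85 and 7.24 against 4.17 and 3.56 FPKM, also without overlap (log2 fold change -0.91, SE 0.52, edgeR). The abundant form made up 90.7 ± 3.1% of the Rps18 FPKM in the wild-type pools against 82.9 ± 9.0% in MST1-deficient libraries, and the balance among the 3 forms did not pass (diffSplice, adjusted p = 0.865). In MST1-deficient replicate 2 its share was 76.5%, the lowest of the libraries.

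**Figure D2:**
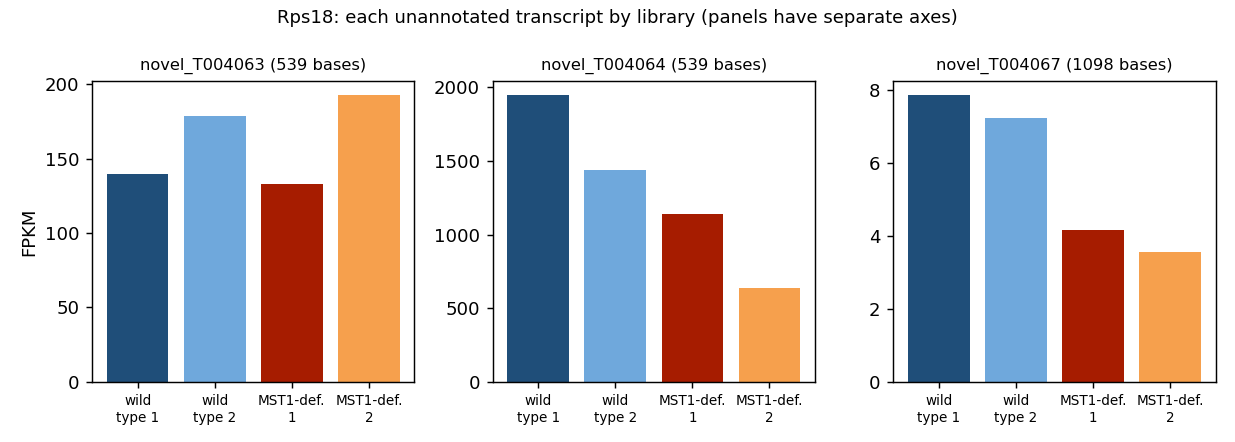
FPKM of the 3 unannotated Rps18 transcripts in each library, one panel per transcript with its own axis starting at 0. The abundant form of 539 bases is lower in both MST1-deficient libraries (1142 and 639 FPKM) than in both wild-type ones (1945 and 1436), while the other form of that length overlaps between the groups. The form of 1098 bases is also lower in both MST1-deficient libraries (4.17 and 3.56 FPKM) than in both wild-type ones (7.85 and 7.24).

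Among the other cytosolic members, those with the smallest p values were proteins of the large subunit with higher mean values in MST1-deficient libraries. Their means over the 4 libraries were at most 10.1 FPKM. Rpl34 had 4.83 and 6.32 FPKM in the wild-type pools against 13.0 and 7.20 FPKM in MST1-deficient libraries (log2 fold change 0.82, SE 0.37, edgeR adjusted p = 0.925). Rpl6 had 3.78 and 3.26 against 4.53 and 5.54 FPKM (0.60, SE 0.42), and Rpl21 9.21 and 8.54 against 10.6 and 11.9 FPKM (0.41, SE 0.30). The groups did not overlap for these 3 genes. Rpl11, which binds and inhibits the p53 ligase Mdm2 when ribosome assembly fails, had 3.26 and 1.77 against 7.62 and 2.79 FPKM (1.04, SE 0.73), with overlap. In Rpl34, a form of 2479 bases was present in wild-type replicate 1 alone, at 2.27 FPKM, where it made up 47.0% of the gene.

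Of the 8 tested cytosolic members with negative differences, Rps18, Rps15a, Rpl23 and Rpl35a had the smallest p values (edgeR). Rps15a had 1.01 and 1.13 FPKM in the wild-type pools against 0.610 and 0 FPKM in MST1-deficient libraries, from at most 42.2 counts. Its log2 fold change of -1.90 (SE 1.63, edgeR) ran from -8.35 to -0.91 with each library left out. Rpl23, another large subunit protein that can bind Mdm2, had 5.01 and 4.81 against 2.69 and 4.80 FPKM, so that 1 MST1-deficient library was almost level with wild type. Rpl35a had 2.43 and 1.03 against 1.20 and 1.92 FPKM, with overlap. Rpl17 was too low to be tested: its 17.1 and 10.1 counts in the wild-type pools faced 0 in either MST1-deficient one. Scaled to library totals, the wild-type mean was 4.47 times a floor of 3 counts per library. That ratio of means leaves out the spread between the wild-type pools and is not a lower bound.

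Some cytosolic members differed more between the pools of 1 genotype than between genotype means, and the 2 named here were chosen after their values were seen. Rpl7l1, a nucleolar relative of Rpl7, had 2.82 and 19.2 FPKM in the MST1-deficient libraries around 11.9 and 15.1 FPKM in wild type. Rpl3, which lies close to the site of peptide bond formation, had 4.71 and 0.450 FPKM in MST1-deficient libraries and 1.5 and 1.59 FPKM in wild type. Both genes have 1 listed transcript, and their mean differences were smaller than their SE (log2 fold change -0.12, SE 0.98, and 0.67, SE 1.06, edgeR).

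Of the mitochondrial members, 4 had lower and 1 had higher values in MST1-deficient pools without overlap. Mrpl32, which needs processing by a mitochondrial protease before it joins the large subunit, had 1.85 and 1.5 FPKM in the wild-type pools against 0.580 and 0.910 FPKM in MST1-deficient libraries (log2 fold change -1.09, SE 0.70, edgeR adjusted p = 0.988). Mrpl11 had 2.16 and 2.38 against 1.41 and 1.10 FPKM (-0.82, SE 0.51), and Mrps12, of the decoding region, 5.04 and 5.45 against 3.66 and 2.98 FPKM (-0.59, SE 0.58). Mrps17 was the fourth (-0.13, SE 0.28). Mrpl21 had 41.7 and 47.9 against 49.7 and 58.9 FPKM (0.36, SE 0.32). Of cytosolic members, 4 of 17 were lower and 3 of 17 higher without overlap, beside 18.8% and 14.0% of all tested genes, and 4 of 11 and 1 of 11 mitochondrial members.

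Of the 8 mitochondrial members above 10 FPKM, 7 had a difference smaller than its SE, the exception being Mrpl21. Mrpl42, Mrpl24, Mrpl58, Mrpl57, Mrpl39 and Mrpl15 had log2 fold changes between 0.03 and 0.23. Mrpl57 was the most even of all members, with 32.7 and 34.3 FPKM in the wild-type pools against 34.4 and 32.98 FPKM in MST1-deficient libraries. The 4 untested members Mrps30, Mrps18c, Mrps16 and Mrpl23 had at most 1.31 FPKM in any library. Mrpl23, with 1.12 and 3.23 counts in the wild-type pools and 0 in the others, had too few for a fold.

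**Figure D3:**
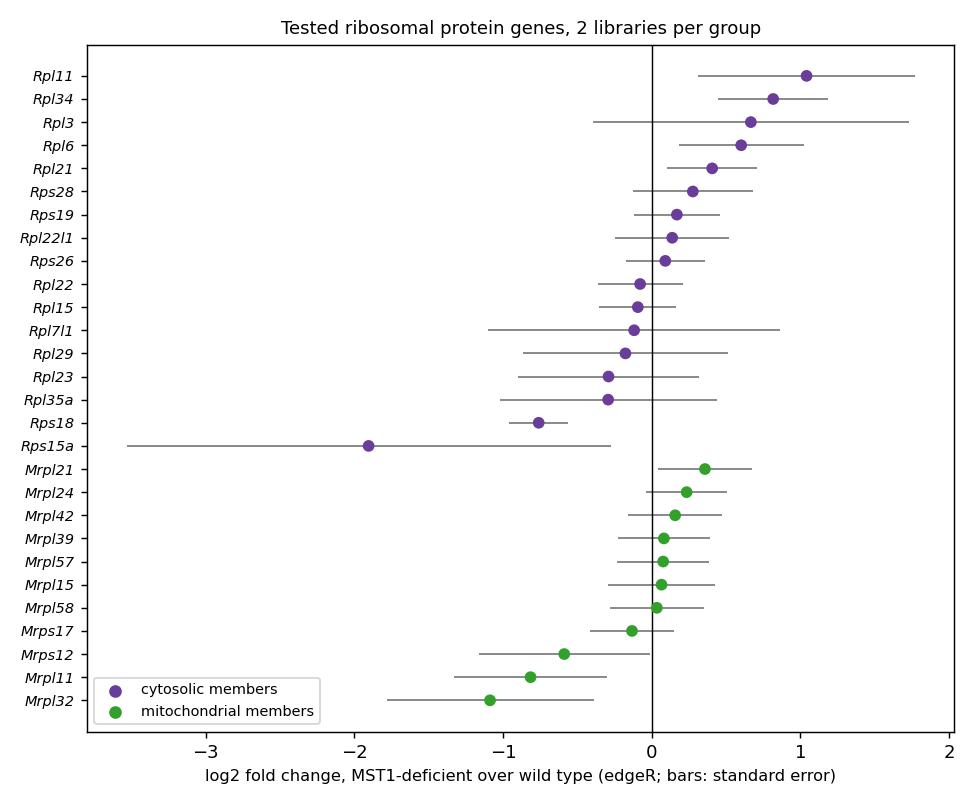
Log2 fold change (MST1-deficient over wild type, edgeR) of the 17 cytosolic and 11 mitochondrial members tested, with bars of 1 standard error. Most bars cross 0, the bar of Rps18 is short and lies below 0, and the widest belongs to Rps15a.

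At the level of single transcripts, 38 of the 49 listed transcripts of members were tested and 0 passed with edgeR, as did 0.0% of all transcripts. DESeq2 and limma called 0 of them too, and the only one at an unadjusted p under 0.05 with edgeR was the abundant Rps18 form, beside 5.26% of all transcripts. The balance among transcripts was tested in 6 members and passed in 0 (diffSplice, adjusted p at least 0.865), beside 1.21% of all genes tested, and 0 had an unadjusted p under 0.05, beside 9.68%. Mrps17 had 4 forms, of which the one of 1018 bases made up 53.0 ± 6.4% of its FPKM in the wild-type pools against 52.6 ± 0.4% in MST1-deficient libraries. The 2 forms of Mrpl24, of 975 and 895 bases, made up 58.2 ± 3.4% and 41.8 ± 3.4% in the wild-type pools against 54.8 ± 0.4% and 45.2 ± 0.4% in MST1-deficient libraries. Rpl15 had forms of 1977 and 1955 bases whose shares varied within groups: the longer made up 68.6% and 57.5% in the wild-type pools against 72.0% and 55.8% in MST1-deficient libraries.

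In the median, differences between the 2 MST1-deficient pools exceeded those between the genotypes and ran in the same direction in both sets. On the scale of log2 CPM with TMM scaling (CPM, counts scaled to library size), MST1-deficient replicate 2 was above replicate 1 in 12 of 17 cytosolic and 10 of 11 mitochondrial members, by medians of 0.58 and 0.54, beside -0.02 over all tested genes. Wild-type replicate 2 was above replicate 1 by medians of 0.21 and 0.28, beside 0.0034. The listed transcripts made up 13.4% and 11.8% of the implied library totals of the MST1-deficient libraries. Scaled to those totals, the medians for the MST1-deficient pools were 0.29 and 0.24 beside -0.33 over all tested genes. Such a change of scale moves all genes of a library together. The exceptions, lower in MST1-deficient replicate 2, were Rps18 (-0.26), Rpl11, Rpl34, Rpl3 and Rps15a of the cytosolic and Mrpl11 of the mitochondrial members.

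The difference between these pools also changed with transcript length over all genes. Its median (TMM scale) was 0.49 over 111 tested genes with transcripts under 1000 bases and -0.21 over 985 genes with transcripts over 5000 bases. Members are short: 13 of 28 fell in the class under 1000 bases, where their median was 0.57. In the class of 2000 to 3000 bases, 8 members had a median of 0.65, beside 0.13 over 622 genes. The median difference between genotypes was 0.09 over all genes under 1000 bases and 0.07 over the members in that class. When MST1-deficient replicate 1 was left out, the median log2 fold changes between genotypes were 0.36 for cytosolic and 0.28 for mitochondrial members, and without MST1-deficient replicate 2 they were -0.37 and -0.26. The direction of both sets therefore depended on which MST1-deficient pool was used. Counts and FPKM implied that about 126 bases were taken off each transcript length in MST1-deficient replicate 2 and between 134 and 138 bases in the other libraries, a difference that is largest relative to length for short forms such as that of Rps28 (327 bases). The part of this and of the Y-linked and marker differences in the pool difference was not tested.

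**Figure D4:**
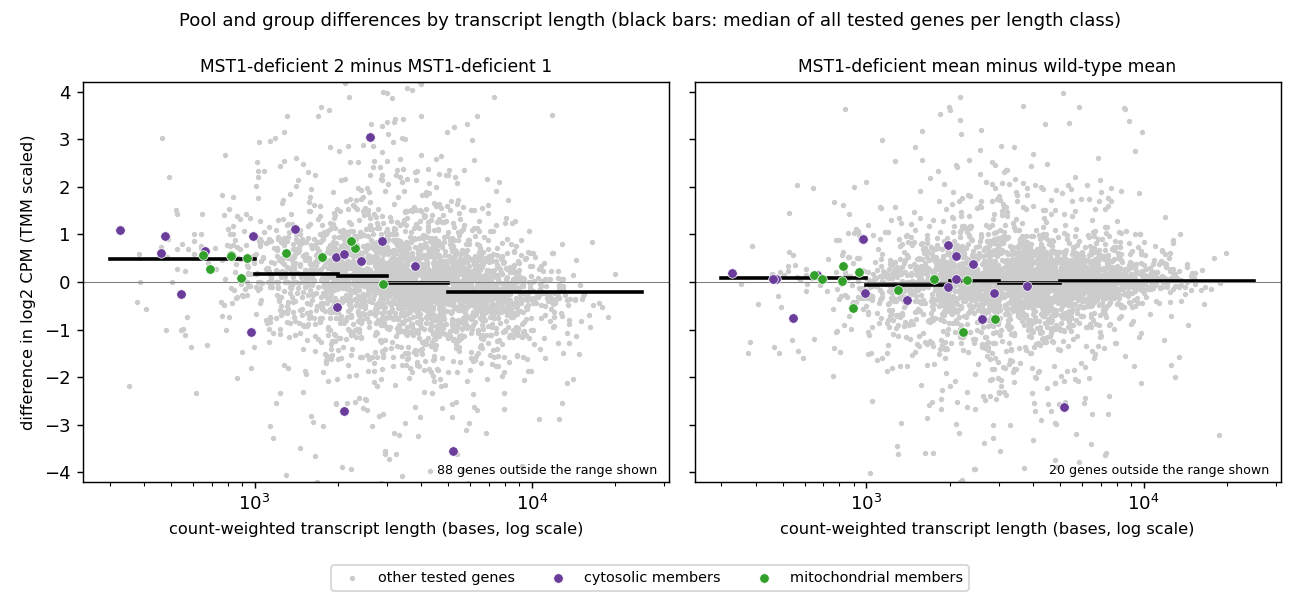
Difference in log2 CPM (TMM scaled) against count-weighted transcript length (log axis), between the MST1-deficient pools on the left and between the genotype means on the right, for members (coloured) and all other tested genes (grey). Black bars give the median of all tested genes per length class, from 0.49 under 1000 bases to -0.21 over 5000 bases on the left and near 0 on the right; most members lie above 0 on the left.

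Most unannotated transcripts of cytosolic members were longer than known messages of the gene. Of 28 such transcripts, 21 were longer than the longest protein-coding transcript of the gene in GENCODE M21, against 7 of 21 for mitochondrial members and 52.4% of 7744 transcripts over all genes. The 7 that were not longer held the main forms of the 5 most abundant members: 461 bases for Rps26 against 681, 327 for Rps28 against 437, 539 for Rps18 against 560, 665 for Rps19 against 1284, and 474 for Rpl22l1 against 552. The other one was that of Rps15a, a member of low level (5177 bases against 5179), and the Rps18 form of 1098 bases was longer than its 560. At the other end, Rpl35a forms of 3080 and 1715 bases compared with 519, and the Rpl22 form of 3788 bases with 2051. No transcript of a member had the length of an annotated one. Pseudogenes carrying the name of a member numbered 78 for 14 cytosolic members and 1 for mitochondrial members.

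Of the start sequences, the longest tract, of 13 pyrimidines, is that of Rpl15, and the tract of Rps18 holds 9. All 4 members with a tract at the start had negative differences between genotypes, from -0.09 for Rpl15 and -0.29 for Rpl35a to -0.76 for Rps18 and -1.90 for Rps15a (log2 fold change, edgeR), beside 1574 of 3221 tested genes, and none passed the adjusted threshold with edgeR. The grouping by tract was looked at after these values were known. For Rpl15 and Rpl35a the groups overlapped. The other 3 cytosolic members with a tract within 5 bases had positive differences, of 0.09 for Rps26, 0.14 for Rpl22l1 and 0.82 for Rpl34. The start used by the unannotated transcripts is not given in the files, so these windows describe the annotated genes.

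Other genes of ribosome production likewise had 0 edgeR calls. Of ribosomal protein genes outside the naming rule, the stalk protein gene Rplp0 had 15.5 and 25.2 FPKM in the wild-type pools against 15.5 and 20.5 FPKM in MST1-deficient libraries. Dap3, a mitochondrial small subunit protein, had 4.01 and 3.99 against 2.74 and 3.30 FPKM. Of 5 tested genes of small subunit assembly 3 had positive differences (median log2 fold change 0.09), and of 8 of large subunit assembly 5 (median 0.14). Noc2l, a large subunit assembly factor, had 15.9 and 18.9 against 9.86 and 12.4 FPKM, without overlap (edgeR adjusted p = 0.951). It was the only 1 of the 8 to be lower without overlap, beside 18.8% of all tested genes. The smallest p of these 8 belonged to another gene, with a positive difference. Of 9 tested genes of mitochondrial ribosome assembly and translation, 4 had positive and 5 negative differences (median -0.18), beside a median of 0.01 over all tested genes.

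Across these lists, 2 of 37 tested genes had an unadjusted p under 0.05 with edgeR, a share of 5.41% beside 5.65% of all genes, and both are given as values only. Ttf1, a termination factor of RNA polymerase I, had 10.1 and 10.5 FPKM in the wild-type pools against 6.48 and 3.82 FPKM in MST1-deficient libraries (log2 fold change -0.98, SE 0.30, edgeR adjusted p = 0.757). It was 1 of 6 tested genes of ribosomal RNA transcription, 4 of which had positive differences. Of the kinases left out by the rule, Rps6ka2, a member of the RSK family that can phosphorylate ribosomal protein S6, had 2.33 and 2.60 against 4.30 and 5.26 FPKM (1.03, SE 0.37, edgeR adjusted p = 0.846). It was 1 of 4 tested kinases, with 3 positive differences.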

How the data were processed

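RNA-seq of sorted progenitors was analysed in 4 libraries, 2 wild type and 2 MST1-deficient, each a pool of 10 mice. The authors deposited estimated counts and FPKM per unannotated transcript with its length (other measure, in bases), per the file headers; mm10 is the build in the submitters' processing notes, and the aligner, assembler and annotation are not given in the sources used here. FPKM and counts were summed per gene number, with missing values set to 0. Symbols came from RefSeq (GRCm38.p6, which is mm10) for 5051 of 5059 gene numbers.

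Counts were rounded and fitted for all features with edgeR 4.0.16 (TMM, quasi-likelihood F-test, 2-sided) under R 4.3.3, with an SE taken as the log2 fold change over the root of F. Features needed at least 1 FPKM in at least 2 libraries. Transcript balance used diffSplice (limma 3.58.1) on log2(FPKM + 0.5). DESeq2 1.42.0 and limma were alternatives. P-values measure the spread between 2 pools a group, which the labels give as separate samples; whether pools were prepared separately is not given. PCR copies carry no molecular identifiers, so floors cover counting error only. The members and lists were chosen with earlier results of these data known. Members were named by level (the 5 highest per set) and by edgeR p (5 per direction and set), by a group at 0, by transcript tests and as paralogue pairs. Genes of other lists were picked from those with the smallest p of each list, and not every such gene is named. Library totals implied by FPKM were added as an alternative after seeing the data, and so were sums without Rps18 and medians over members above 0 in all libraries. Protein sequences were not used. A gene of the related lists is not reported here.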

Additional observations from a re-analysis of the deposited data

How the results depend on the processing

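The edgeR count of 0 changed genes was 5 with limma (and with a pseudocount of 1), 9 with a pseudocount of 0.1, 46 with DESeq2, 2 at a minimum of 5 FPKM and 1 among genes above 0 in all 4 libraries; of transcripts, 5 with limma, 100 with DESeq2, 1 and 2 under the same filters. Rps18 with DESeq2 was the 1 call of a member among these gene settings, and no member transcript was called in any. Genes changed in balance numbered 11, and 25 and 7 with pseudocounts of 0.1 and 1, 1 when each transcript had to be above 0 throughout, and 0 with the replicate block. With each library left out the range was 0 to 7 for balance and 0 to 0 for genes and transcripts.

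The replicate block left 0 edgeR calls and changed no call of a member. Replicates share only a number: with 2 pairs, the deviations of equal numbers correlated at 0.075 over 3221 genes, a hint from the data and not the design.

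Leaving out libraries moved the median log2 fold change between -0.368 and 0.361 (cytosolic) and between -0.265 and 0.282 (mitochondrial); without MST1-deficient replicate 2 it was -0.368 and -0.265. Summed levels moved by less than the spread between replicates under the settings tried, although without Rps18 the cytosolic ratio turned from 0.931 to 1.03. On the limma scale the direction turned for Rps26 (-0.0120 with pseudocounts of 0.5 and 1, -0.0121 with 0.1), Rpl22l1 (-0.00521, and -0.00527 and -0.00513 with pseudocounts of 0.1 and 1) and Mrpl58 (-0.0488, -0.0492 and -0.0483), and for Mrpl58 with library totals (-0.0370). With libraries left out the range spanned 0 for Rps26 (-0.241 to 0.361), Rps28 (-0.368 to 0.720), Rps19 (-0.192 to 0.458), Rpl22l1 (-0.422 to 0.540), Mrpl42 (-0.160 to 0.418), Mrpl24 (-0.0417 to 0.466), Mrps17 (-0.470 to 0.140), Mrpl58 (-0.265 to 0.282), Rpl23 (-0.9999 to 0.183), Rpl35a (-0.834 to 0.462), Rpl15 (-0.382 to 0.146), Mrpl39 (-0.203 to 0.323) and Mrpl57 (-0.0699 to 0.210). The cause of these changes was not tested. The members with a mean below 1 FPKM, 4 cytosolic and 4 mitochondrial, had at most 43.4 counts in any library.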
